A study of Mus musculus with 153 samples.

Results

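The nuclear genes for respiratory complexes II to V were followed through RNA sequencing of the mouse dorsal hippocampus. The members are all symbols in the deposited count tables that start with Uqcr, Cox4 to Cox8 or Atp5, plus Cyc1 and the genes Sdha, Sdhb, Sdhc and Sdhd, without pseudogene symbols. They are 48 of 25103 symbols, with 4 in complex II, 9 in complex III, 18 in complex IV and 17 in complex V. A few carry the prefix without being subunits, among them Cox7a2l, which helps to join complexes into supercomplexes, and Atp5sl, named Dmac2 in newer annotations. Cox8c was too low to be tested in any comparison, which leaves 47 members in the tests, and 46 in the fits of Camk2a purified libraries alone.

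The mice carried Camk2a.Cre, Pvalb.Cre or Sst.Cre together with TRAPfl, a conditional allele for translating ribosome affinity purification. All libraries, controls included, come from such double-transgenic animals of an age that the labels do not give, and the labels call the cells neurons. Camk2a.Cre drives the tag in excitatory pyramidal neurons, Pvalb.Cre in parvalbumin interneurons, most of them fast-spiking, and Sst.Cre in somatostatin interneurons. The purified fraction holds RNA bound to tagged ribosomes, and the total lysate holds RNA of the whole tissue. Within each line there was a 15 min set and a 60 min set, each with mice left in the home cage, mice placed in a new box without a shock and mice conditioned there with a shock. Each of the 36 groups of line, set, condition and fraction held 3 to 6 libraries, which the submitters describe as biological replicates. Animals behind a library are not otherwise named, so a p-value measures the spread between libraries.

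The respiratory chain passes electrons from complex II, which is succinate dehydrogenase, through complex III, the cytochrome bc1 complex, to complex IV, cytochrome c oxidase, and the proton gradient made on the way drives complex V, the ATP synthase. Every member is encoded in the nucleus and imported into mitochondria, while the remaining core subunits come from mitochondrial DNA. Fast-spiking parvalbumin interneurons are known for dense mitochondria and a high demand for ATP, and several complex IV subunits exist as a widely expressed form and a form best known from heart and skeletal muscle.

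The 76 purified libraries held 9043042 to 397228206 counts and the 75 lysate libraries 16392725 to 292132306. A marker score, the mean log2 level of the line's own neuron class minus that of glia, endothelium and the opposite neuron class, stood 1.61 to 4.91 log2 units above the lysates in every purified Camk2a and Pvalb library. Sst libraries went against their label more often. The score was less than 1 unit above the lysates in 4 of 5 shock libraries and 1 of 3 box libraries of the Sst 15 min set, and in 4 of 4 shock, 2 of 5 home cage and 1 of 4 box libraries of the Sst 60 min set. In the 4 Sst 60 min shock libraries it lay between -0.906 and -0.188, so by this score the line's own neuron class was not enriched over other cell types there. Member shares and counts that rest on these libraries are also given without them, except for the Sst 60 min shock comparisons, where no shock library would be left.

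The coding sequences of 4 members are shown because 2 contrasts between members recur below, one between isoforms and one between base compositions. They are GENCODE M21 transcripts on build GRCm38, each read 5′ to 3′ from the minus strand, whole or, for Cox6a1 and Uqcrb, as bases 1 to 300 of the coding sequence. Cox6a1 (chr5:115345843-115348950, 4 coding exons) encodes the widely expressed form of a small complex IV subunit, and Cox6a2 (chr7:128205729-128206295, 4 coding exons) encodes its heart and muscle form. Capitals mark their longest identical run, of 12 bases, and 66.6% of 290 aligned bases are identical.
Cox6a1: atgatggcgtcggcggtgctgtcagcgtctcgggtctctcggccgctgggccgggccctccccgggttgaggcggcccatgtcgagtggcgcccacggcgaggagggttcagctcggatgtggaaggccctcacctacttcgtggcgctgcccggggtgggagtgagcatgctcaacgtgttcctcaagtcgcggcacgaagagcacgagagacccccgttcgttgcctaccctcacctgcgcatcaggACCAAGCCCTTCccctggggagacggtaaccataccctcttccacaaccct
Cox6a2: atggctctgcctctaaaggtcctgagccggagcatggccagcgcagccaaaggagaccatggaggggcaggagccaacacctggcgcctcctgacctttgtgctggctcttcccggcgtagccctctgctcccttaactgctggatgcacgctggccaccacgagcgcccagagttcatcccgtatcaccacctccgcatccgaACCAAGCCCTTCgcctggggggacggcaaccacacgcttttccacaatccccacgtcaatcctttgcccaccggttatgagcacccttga
Uqcr11 (chr10:80404166-80406745, 3 coding exons) and Uqcrb (chr13:66900749-66905311, 5 coding exons) encode small accessory subunits of complex III. Here capitals mark every G and C, which make up 60.2% of the Uqcr11 sequence and 42.9% of the Uqcrb sequence.
Uqcr11: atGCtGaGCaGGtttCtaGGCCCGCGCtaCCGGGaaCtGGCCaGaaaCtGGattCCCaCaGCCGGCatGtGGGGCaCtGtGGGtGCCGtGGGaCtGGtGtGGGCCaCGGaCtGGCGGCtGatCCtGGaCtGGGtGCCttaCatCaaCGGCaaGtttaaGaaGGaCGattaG
Uqcrb: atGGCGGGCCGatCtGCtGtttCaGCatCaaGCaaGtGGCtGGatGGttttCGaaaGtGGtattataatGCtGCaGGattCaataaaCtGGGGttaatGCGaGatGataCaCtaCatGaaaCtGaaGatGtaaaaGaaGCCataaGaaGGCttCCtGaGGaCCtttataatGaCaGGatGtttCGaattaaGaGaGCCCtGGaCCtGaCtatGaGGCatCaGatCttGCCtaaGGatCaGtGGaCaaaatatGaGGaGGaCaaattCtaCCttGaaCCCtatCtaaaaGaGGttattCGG

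The 48 members together took a larger share of all counts in purified RNA than in lysate in each line and set. The share was 3.64% ± 0.673 (SD, n = 13) of purified and 1.72% ± 0.209 (n = 12) of lysate counts in the Pvalb 15 min set, and 3.80% ± 0.269 (n = 16) against 1.68% ± 0.126 (n = 16) in the Pvalb 60 min set. In Camk2a mice it was 3.07% ± 0.204 (n = 10) against 1.71% ± 0.0921 (n = 10) at 15 min and 2.73% ± 0.405 (n = 12) against 1.74% ± 0.168 (n = 12) at 60 min. Purified and lysate ranges did not overlap in these 4 sets. In Sst mice the share was 3.02% ± 0.748 (n = 12) against 1.51% ± 0.103 (n = 12) at 15 min and 2.29% ± 0.486 (n = 13) against 1.65% ± 0.225 (n = 13) at 60 min, and there the ranges overlapped. Without the low-score purified libraries it was 3.40% ± 0.658 (n = 7) at 15 min and 2.67% ± 0.216 (n = 6) at 60 min. Lysates thus stood at a similar level in all lines while purified libraries varied, and the lowest purified values belonged to Sst libraries, the 60 min shock group (1.38% to 2.03%) and 1 box library at 15 min (1.60%).

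**Figure D1:**
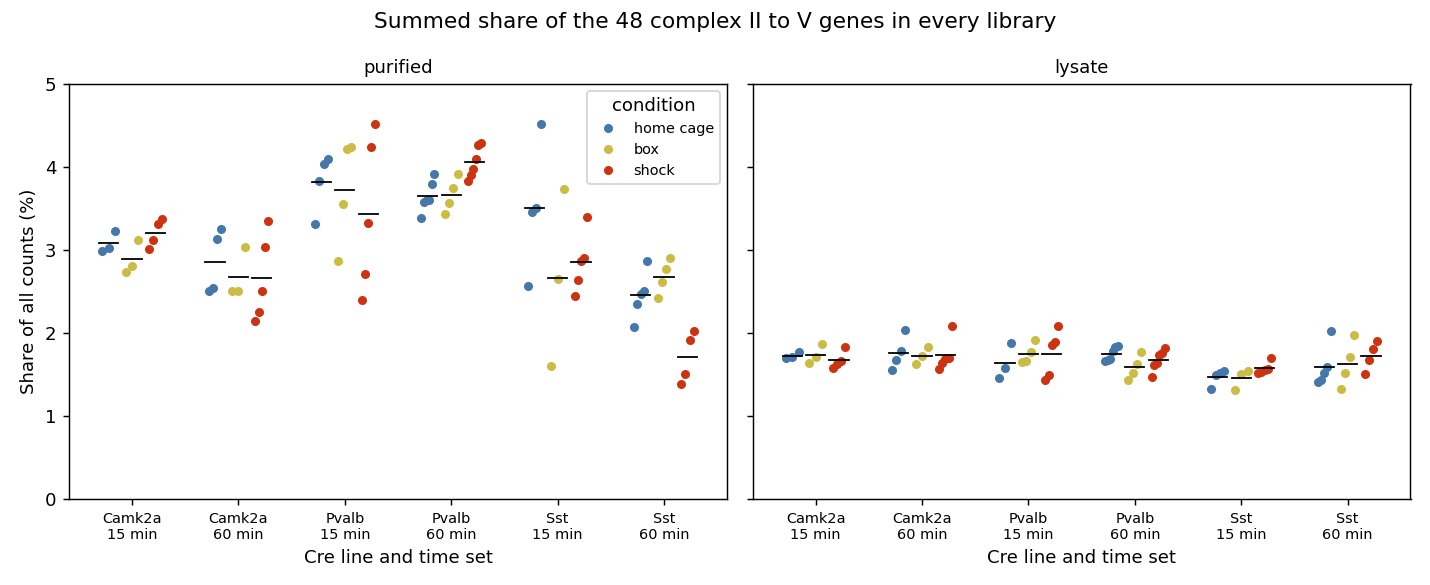
Share of all counts in percent taken by the 48 members, 1 point per library, with purified libraries on the left, lysates on the right, colours for the condition and black bars for group means. The Pvalb 60 min purified libraries all lie at or above 3.39%, while the 4 Sst 60 min shock libraries lie at 1.38% to 2.03%, near the lysates.

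Levels within a complex were compared per kb of transcript, as counts scaled to the same library total (CPM, the usual scale) per kb in home cage purified RNA. In complex II, Sdhb, the iron-sulfur subunit, or Sdha, the flavoprotein, was highest in each set, at 516 to 564 CPM per kb, and Sdhc, a membrane anchor, was lowest, at 88.7 to 238. In complex III the highest member was Uqcrb in 4 sets and Uqcr11 in Camk2a 60 min and Sst 60 min, where Uqcr11 reached 4735 and 2330 CPM per kb. The order within complex III therefore changed between sets of the same line: in Camk2a purified RNA Uqcrb led at 15 min with 2605 CPM per kb. Cox6c and Cox5a led complex IV in the 3 lines at 15 min and in Pvalb 60 min, and Atp5g3 and Atp5j, a c-ring and a stalk subunit of the ATP synthase, led complex V in all 6 sets. Atp5sl and Atp5g2 were the lowest of complex V, at 18.6 to 34.7 CPM per kb, and Cox8c was at 0 in all home cage purified groups.

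Most members were higher in purified RNA than in lysate, and this was the broadest pattern in the data. In bulk tissue, fewer cells of a type and less RNA per cell cannot be told apart. Of 47 members, 37 were higher and 3 lower in the Camk2a 15 min set, where 22.9% of all genes tested were higher and 27.8% lower (50.7% in either direction), and 36 were higher and 4 lower in the Camk2a 60 min set, against 22.2% and 35.3% of all genes (57.5%). In Pvalb mice 42 were higher and 0 lower at 15 min, against 21.3% and 24.3% of all genes (45.6%), and 42 were higher and 2 lower at 60 min, against 28.0% and 32.4% (60.4%). In Sst mice 41 were higher and 1 lower at 15 min, against 23.6% and 21.0% (44.5%), and 28 were higher and 6 lower at 60 min, against 31.2% and 28.2% (59.4%). Without the low-score libraries the Sst counts were 41 higher and 1 lower at 15 min and 30 and 1 at 60 min. The median log2 difference of members was 1.07, 0.89, 1.18, 1.14, 1.31 and 0.58 in that order, beside -0.14, -0.26, -0.15, -0.13, -0.05 and 0.11 for all genes tested. A member counts as higher or lower where the edgeR quasi-likelihood test gave an adjusted p under 0.05, with Benjamini-Hochberg adjustment over all genes, as in all counts below. Altogether 24 members were higher in all 6 sets and 35 in all 5 sets other than Sst 60 min.

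Complex II showed the smallest differences. Its median log2 difference was 0.68 and 0.47 in Camk2a, 0.78 and 0.92 in Pvalb, and 0.85 and 0.23 in Sst mice at 15 and 60 min. Sdhb was higher in all 6 sets, by 0.83 to 1.22 on the log2 scale, while Sdha was higher in both Pvalb sets and Sst 15 min by 0.31 to 0.52, and was lower by -0.37 (SE 0.0854, adjusted p = 0.000837) in Camk2a 60 min. With GC and length offsets that difference turned to 0.41. In that set Sdha stood at 462 ± 77.0 CPM (SD, n = 12) in purified RNA and 727 ± 42.4 (n = 12) in lysate. Sdhd did not pass the test in Sst 60 min (-0.03).

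In complex III the median difference was 1.37, 1.10, 1.10, 1.09, 1.58 and 1.11 in the order Camk2a, Pvalb, Sst with 15 min before 60 min. The small subunits moved most. Uqcrh, the hinge protein that binds cytochrome c1, was higher in all 6 sets, and in the Pvalb 60 min set it stood at 821 ± 144 CPM (SD, n = 16) against 239 ± 43.1 in lysate (n = 16), a log2 difference of 2.05 (SE 0.0941, adjusted p = 1.73e-18). Uqcr11, Uqcr10 and Uqcrq were higher in all 6 sets too, by 0.90 to 1.79. The core subunits Uqcrc1 and Uqcrc2 moved less, and in Camk2a mice neither passed the test at 15 or 60 min (-0.28 to 0.31). Uqcrb was higher in 5 sets by 1.10 to 2.18 and lower by -1.18 (SE 0.335, adjusted p = 0.00434) in Sst 60 min.

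Complex IV held both the largest and the most opposed differences. Cox5a, a matrix-side subunit, was higher by 2.57 (SE 0.217) and 2.71 (SE 0.113) in the Pvalb sets, where it stood at 2037 ± 478 CPM (SD, n = 16) against 380 ± 44.2 (n = 16) at 60 min, and by 1.42 and 1.20 in the Camk2a sets. Cox4i1, Cox5b, Cox6a1, Cox6b1, Cox7a2, Cox7a2l and Cox8a were higher in all 6 sets. Cox6c, Cox7b and Cox7c were higher in the 5 sets other than Sst 60 min, where Cox7b (-0.97) and Cox7c (-0.82) were lower and Cox6c did not pass the test (-0.16). The median of the complex was 1.07, 0.89, 1.26, 1.21, 1.31 and 0.58.

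In complex V the c-ring gene Atp5g3 was the most different member in Pvalb mice, with 2577 ± 565 CPM (SD, n = 16) in purified RNA and 448 ± 70.6 (n = 16) in lysate at 60 min, a log2 difference of 2.82 (SE 0.118, adjusted p = 1.74e-19). Atp5h, a stator subunit, was higher in all 6 sets by 0.98 to 2.02. Atp5b, the catalytic beta subunit, was higher by 0.34 to 0.86 in 5 sets and did not pass in Camk2a 60 min (0.13). Atp5s, a coupling factor known as factor B, was higher in both Pvalb sets (0.64 and 1.04) and lower in Sst 60 min (-1.33).

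CPM values are per library total, while log2 differences use TMM factors, which move the 2 apart. Between TMM and plain totals the median of all genes shifted by 0.35, 0.29, 0.24, 0.28, 0.41 and 0.02 log2 units in the order Camk2a, Pvalb, Sst with 15 min before 60 min. With totals alone 33, 30, 40, 40, 35 and 24 members were still higher and 6, 6, 0, 3, 1 and 6 lower. Sdha in Sst 15 min changed sign, from 0.31 to -0.098, and no longer passed.

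**Figure D2:**
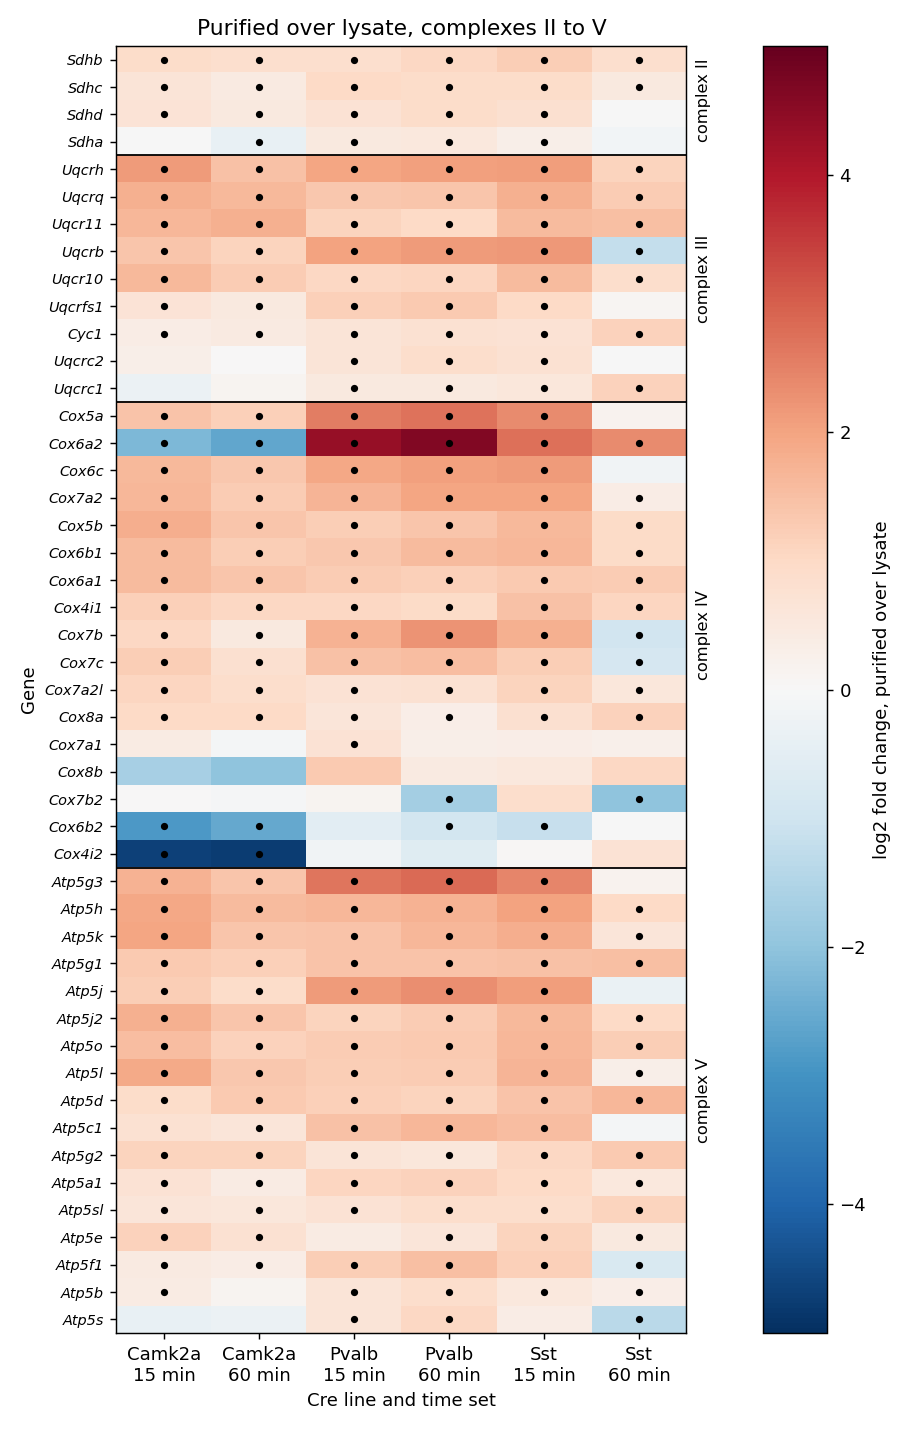
Heat map of the log2 fold change of purified RNA over lysate, with 47 members in rows by complex and line and set in columns, red for higher, blue for lower and a dot for an adjusted p under 0.05. Most cells are red, Cox6a2 turns from blue in Camk2a to dark red in Pvalb mice, and the Sst 60 min column holds both colours.

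The Sst 60 min set differed from the others in how the members were ordered. There the log2 difference followed the GC content of the transcript: Pearson's r was 0.75 over the 47 members and 0.744 over 16734 genes, both as descriptions since genes of 1 set share libraries, beside -0.22 to -0.07 over members in the other 5 sets. Members that were lower there had a median GC of 43.4% and those that were higher 54.3%. The GC slope of a library, the log2 change per 10 percentage points of GC against the mean of its set and fraction, ran from -0.700 to 1.14 in the Sst 60 min lysates and from -0.489 to 0.397 in the lysates of the other sets. Uqcrb showed this spread: in Sst 60 min home cage lysates it was at 190, 246, 879, 961 and 1131 CPM, with 2 libraries far below the other 3. In the same set, home cage lysates 4 and 5 and box lysate 1 had GC slopes of 0.947, 1.14 and 1.11. They held 275026148, 264109341 and 292132306 counts, and the remaining lysates of the set 39626875 to 79349264. With offsets for GC and length, 18 members were higher and 2 lower, and without the low-score purified libraries, which leaves no shock group, 30 were higher and 1 lower. The part of GC composition in the unadjusted counts was not tested beyond this.

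Cox6a2 differed strongly between the lines. In home cage purified RNA of Camk2a mice it was at 0.956, 1.51 and 2.90 CPM at 15 min and at 0.874, 1.10, 2.40 and 2.98 CPM at 60 min. In Pvalb mice it was at 111, 187, 197 and 197 CPM at 15 min, and between 76.3 and 137 CPM with a median of 86.2 at 60 min (n = 6). Every Pvalb library was thus far above every Camk2a library. In Sst mice it was at 25.7, 34.2, 85.3 and 97.2 CPM at 15 min and at 7.98, 16.96, 41.6, 41.9 and 65.7 CPM at 60 min, between the other lines, and 3 of the 5 Sst 60 min libraries were at or above 41.6 CPM. Lysates of all lines lay between 2.47 and 21.5 CPM over all conditions.

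Against lysate, Cox6a2 was 4.34 (SE 0.295) and 4.62 (SE 0.196) log2 units higher in the Pvalb sets and 2.77 (SE 0.489) and 2.35 (SE 0.290) higher in the Sst sets. It was lower in the Camk2a sets, by -2.24 (SE 0.573, adjusted p = 0.00286) and -2.59 (SE 0.283, adjusted p = 4.1e-08). Its partner Cox6a1 was higher in every set, by 1.57, 1.37, 1.26, 1.21, 1.31 and 1.26. Within the Cox6a pair, Cox6a1 gave 99.8% ± 0.0917 (SD, n = 3) of the CPM per kb of transcript in Camk2a 15 min home cage purified RNA. In the matching Pvalb group it gave 87.7% ± 3.27 (n = 4). In home cage purified RNA the widely expressed form thus led in all lines. In Pvalb 15 min it stood at 1835 CPM per kb, against 254 for the heart and muscle form. This does not cover the shock and box groups.

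**Figure D3:**
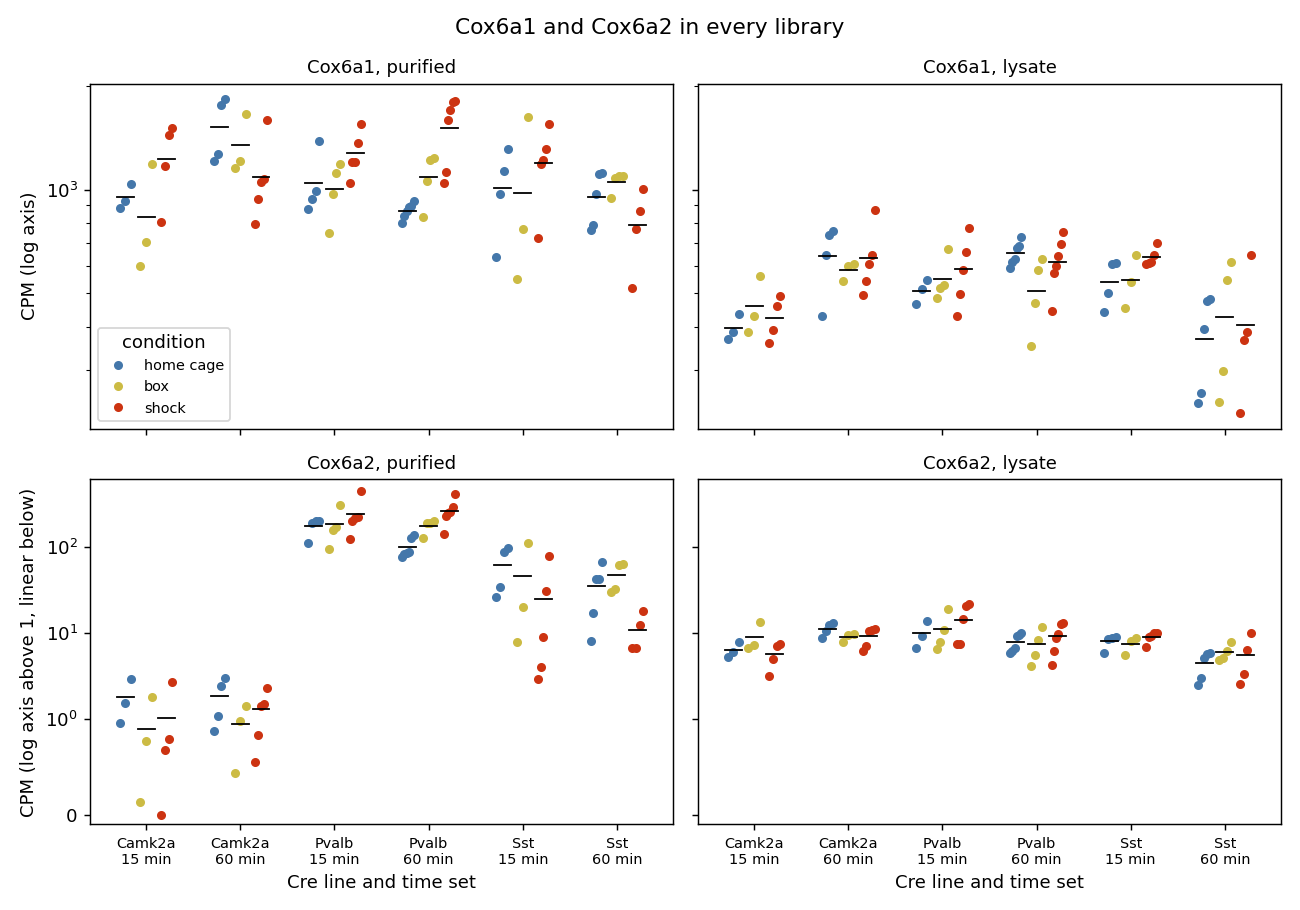
CPM of Cox6a1 (top) and Cox6a2 (bottom) in each library, purified on the left and lysate on the right, on log axes that turn linear below 1 CPM for Cox6a2, with colours for the condition and bars for group means. Cox6a2 lies at 0 to 2.98 CPM in Camk2a, 76.3 to 435 in Pvalb and 2.88 to 109 in Sst purified libraries.

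Other tissue forms of complex IV were at low levels. Cox4i2, the hypoxia-responsive partner of Cox4i1, was at 0.0310 ± 0.0469 CPM (SD, n = 10) in Camk2a 15 min purified RNA and 0.641 ± 0.316 (n = 10) in lysate, and was lower by -4.69 and -4.74 in the 2 Camk2a sets. Markers of mural cells, pericytes and smooth muscle, moved with it: 8 of 8 were lower in each Camk2a set with medians of -2.72 and -3.83, and their summed level was 6.25 to 18.9 CPM in Camk2a purified and 48.6 to 133 CPM in Camk2a lysate libraries. This was not particular to mural cells. All 8 astrocyte, 7 oligodendrocyte, 8 microglia and 6 endothelial markers were lower in each Camk2a set too, with medians of -3.86 to -2.02. The part of any of these cell types in the Cox4i2 difference was not tested. Cox6b2, the testis form of Cox6b1, was lower by -2.89 and -2.58 in the Camk2a sets, from 1.93 ± 0.963 and 5.50 ± 4.99 CPM in lysate. Cox7a1, Cox7b2 and Cox8b stayed at or under 13.1 CPM on average in each set and fraction.

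Home cage purified libraries were then compared between lines, a comparison in which line and preparation cannot be told apart. At 15 min, 5 members were higher and 0 lower in Pvalb than in Camk2a mice, where 9.09% of all genes were higher and 6.12% lower (15.2% in all), and the same 5, Sdhc, Cyc1, Uqcrc1, Cox6a2 and Atp5d, were higher in Sst than in Camk2a mice, where 6.06% were higher and 3.43% lower (9.50% in all). Both contrasts share the 3 Camk2a libraries. Between Pvalb and Sst mice no member passed, beside 0.00609% of all genes higher and 0.0487% lower (0.0548% in all), and 1 member had an unadjusted p under 0.05. Uqcrc1, a core subunit of complex III, stood at 942 ± 164 CPM (SD, n = 4) in Pvalb, 669 ± 312 (n = 4) in Sst and 228 ± 36.0 (n = 3) in Camk2a mice, with log2 differences of 1.95 (SE 0.337, adjusted p = 0.000182) and 1.54 (SE 0.331, adjusted p = 0.00283) against Camk2a. Sdhc was at 69.5, 71.5 and 75.8 CPM in Camk2a, at 121, 125, 125 and 165 CPM in Pvalb, and at 187, 191, 198 and 198 CPM in Sst mice. The 3 lines did not overlap for Sdhc, and its Pvalb against Sst difference did not pass the test (-0.65, SE 0.252, adjusted p = 0.394). Medians of all genes tested stood at 0.14 and 0.20 in the contrasts against Camk2a, so the member medians of 0.21 and 0.26 were close to them.

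At 60 min more genes differed and the members moved both ways. Between Pvalb and Camk2a mice 17 were higher and 15 lower, where 27.1% of all genes were higher and 24.7% lower (51.8% in all). Between Sst and Camk2a mice 3 were higher and 19 lower, against 13.4% of all genes higher and 24.4% in either direction, and between Pvalb and Sst mice 23 were higher and 6 lower, against 20.0% and 24.2% (44.2%). Cox5a lay between 2263 and 2569 CPM in the 6 Pvalb libraries, at 660, 683, 688 and 849 CPM in Camk2a and at 471, 513, 930, 964 and 1166 CPM in Sst mice, with no overlap between Pvalb and the others. It was 1.62 (SE 0.267, adjusted p = 3.71e-06) log2 units higher in Pvalb than in Camk2a mice. Cox7b, Uqcrb, Atp5j and Atp5f1 were higher in Pvalb than in both other lines, by 1.40 to 2.46. Uqcr11 was lower in Pvalb than in Camk2a mice, at 689 ± 118 (SD, n = 6) against 2107 ± 420 CPM (n = 4), by -1.72 (SE 0.249, adjusted p = 3.57e-07).

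In the 2 contrasts with Pvalb mice the differences at 60 min followed GC content in part. As a description, Pearson's r between log2 difference and GC over 47 members was -0.3 for Pvalb against Camk2a and -0.588 for Pvalb against Sst mice. For Sst against Camk2a mice it was 0.069. Members higher in Pvalb than in Camk2a mice had a median GC of 49.4% and those lower 56.0%. With GC and length offsets the Pvalb against Camk2a counts became 8 higher and 20 lower, so that the majority changed direction, the Sst against Camk2a counts became 2 and 36, and the Pvalb against Sst counts 32 and 0. Without the 2 low-score Sst home cage libraries, 3 and 17 members differed between Sst and Camk2a mice and 20 and 6 between Pvalb and Sst mice. GC content was related to the 15 min differences too. There r over 47 members was 0.323 for Pvalb and 0.351 for Sst against Camk2a mice, and 0.173 for Pvalb against Sst mice. Members called higher at 15 min had a median GC of 56.8% in both contrasts against Camk2a.

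Cox6a2 was the only member called in the same direction in both sets, against Camk2a in both interneuron lines. In Pvalb it was 6.49 (SE 1.23, adjusted p = 0.00053) and 5.64 (SE 0.551, adjusted p = 9.49e-11) log2 units above Camk2a at 15 and 60 min, and in Sst 5.06 (SE 1.15) and 4.02 (SE 0.514). Between Pvalb and Sst mice it differed by 1.62 (SE 0.406, adjusted p = 0.0014) at 60 min, and by 1.43 (SE 0.861) at 15 min, which did not pass (adjusted p = 0.591). Atp5d, the delta subunit of the ATP synthase, and Cyc1, cytochrome c1, were called in opposite directions in the 2 sets of the Pvalb against Camk2a contrast. Atp5d was at 792 ± 228 CPM (SD, n = 4) in Pvalb and 244 ± 34.8 (n = 3) in Camk2a mice at 15 min, a difference of 1.60 (SE 0.445), but at 451 ± 115 (n = 6) and 1029 ± 79.9 (n = 4) at 60 min, a difference of -1.29 (SE 0.228). Cyc1 went from 1.32 to -0.47. The transcripts of Atp5d and Cyc1 had a GC content of 61.1% and 62.3%, and the part of GC in these opposite calls was not tested. Of 47 members, 27 had the same sign in both sets.

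**Figure D4:**
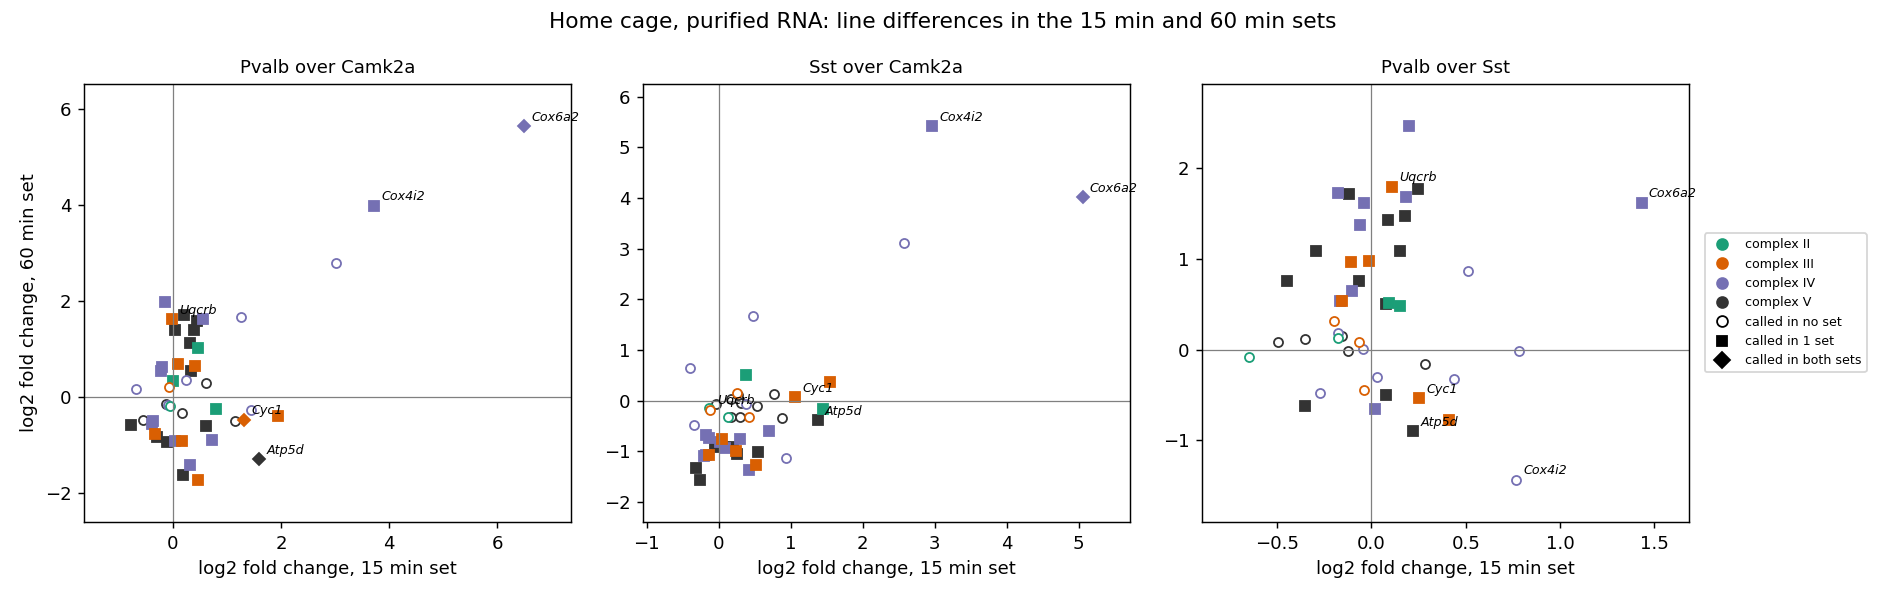
Log2 difference between lines in home cage purified RNA for each member, with the 15 min set on the x axis, the 60 min set on the y axis and 1 panel per pair of lines; diamonds passed the test in both sets, squares in 1 and open circles in none. Cox6a2 lies far right in all panels (6.49 and 5.64 for Pvalb over Camk2a), and Atp5d and Cyc1 lie right of 0 but below it in the first.

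The condition comparisons asked whether a new context or a conditioning shock changed the members in the purified RNA of each line. In the Pvalb 60 min set, 22 members were higher and 3 lower after shock than in the home cage. This was also a broad change: 35.0% of all genes differed, 19.7% higher and 15.3% lower, and the median log2 difference was 0.31 for members and -0.06 for all genes. By complex, 2 of 4 members of complex II were higher, 5 of 9 of complex III higher and 1 lower, 6 of 17 tested members of complex IV higher, and 9 of 17 of complex V higher and 2 lower.

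Markers of cell types moved in the same comparison. Of 8 pyramidal markers 3 were higher and 1 lower (median 0.38), and their summed level was 726 to 1076 CPM in the home cage and 942 to 1533 CPM after shock. Of 7 GABA markers 0 were higher and 3 lower (median -0.42), at 4098 to 5693 CPM and 2825 to 5162 CPM. Of 7 Pvalb markers 2 were higher and 0 lower (median 0.09), at 2883 to 3566 CPM and 3404 to 5114 CPM, and of 6 Sst markers tested 1 was higher and 0 lower (0.32), at 1208 to 1817 CPM and 1821 to 2783 CPM. Among glia, 2 of 8 astrocyte markers were higher and 4 lower (median -0.56, at 2056 to 2833 CPM and 1938 to 2374 CPM), 1 of 7 oligodendrocyte markers was higher and 3 lower (0.45, at 1896 to 3865 CPM and 2425 to 4702 CPM), and 3 of 8 microglia markers were higher and 0 lower (0.58, with sums of 90.9 to 124 CPM and 78.9 to 183 CPM). Of 6 endothelial markers 1 was higher and 2 lower, of 8 mural markers 1 and 1, and of 4 choroid plexus markers 0 and 0. In these groups 1 Sst marker after shock was at 0 and no other marker. Their part in the differences of the members was not tested.

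Uqcr11 lay between 536 and 862 CPM with a median of 693 in the 6 home cage libraries, and between 1052 and 2085 with a median of 2003 in the 6 shock libraries. The groups did not overlap, and the log2 difference was 1.31 (SE 0.194, adjusted p = 0.000594). Cox6a2 lay between 76.3 and 137 CPM in the home cage and between 139 and 404 CPM with a median of 249 after shock, again without overlap (1.39, SE 0.220, adjusted p = 0.000594). Box libraries, at 125, 186, 188 and 197 CPM, overlapped both groups. Atp5d lay between 315 and 634 CPM with a median of 434 in the home cage and between 738 and 1488 with a median of 1390 after shock (1.39, SE 0.220). Cyc1 (1.18), Atp5g2 (1.19), Uqcrc1 (1.12), Atp5g1 (1.12), Cox4i1 (1.01) and Cox8a (0.99) were also higher.

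Uqcrb went the other way. It lay between 1378 and 1786 CPM with a median of 1494 in the home cage and between 455 and 1539 with a median of 700 after shock, so that the groups overlapped (-0.79, SE 0.272, adjusted p = 0.0318). Atp5f1, the b subunit of the stator, fell from 1381 ± 67.7 (SD, n = 6) to 948 ± 248 CPM (n = 6), by 0.55 on the log2 scale, and Atp5s fell by 0.62. The direction of a member was related to its GC content: Pearson's r between log2 difference and GC was 0.784 over 47 members and 0.498 over 16006 genes, as a description. Home cage libraries had GC slopes of -0.563 to -0.304 and shock libraries of -0.109 to 0.810, with 4 of the 6 shock libraries at 0.621 or above. With GC and length offsets 11 members were higher and 0 lower. Cox6a2 (1.19, SE 0.210, adjusted p = 0.00384), Atp5g1 (1.19) and Uqcrq (0.89) were among these 11, while Cox6a1 came to 0.0036 and Cyc1 to 0.24, which did not pass. What produced the GC slopes was not tested.

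**Figure D5:**
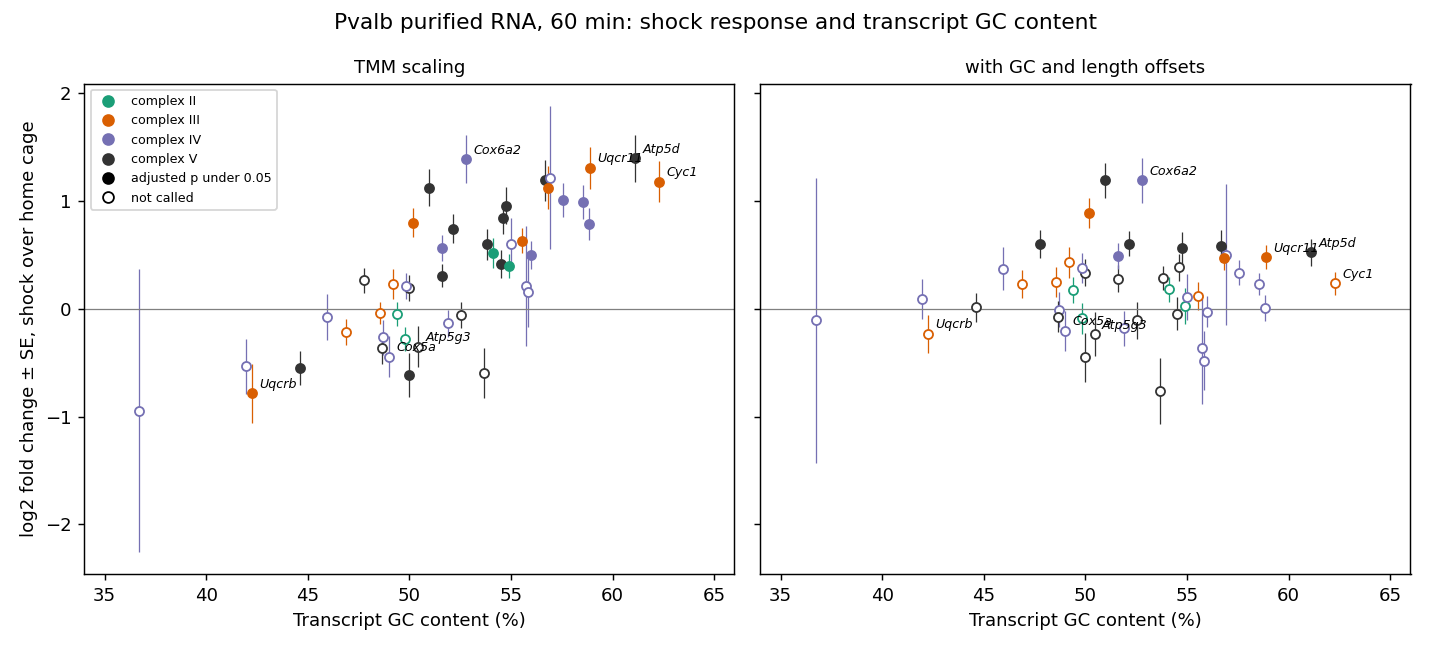
Log2 difference after shock over home cage in Pvalb 60 min purified RNA against the GC percent of the transcript, 1 point per member with bars of 1 SE, coloured by complex and filled where the adjusted p was under 0.05, with TMM scaling on the left and GC and length offsets on the right. On the left the points rise with GC (r = 0.784), with Uqcrb at -0.79 and Atp5d at 1.39, and on the right 11 filled points are left, Cox6a2 at 1.19 among them.

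Against box, no member passed in the Pvalb 60 min set after shock by edgeR, beside 0% of all genes, while 23 members had an unadjusted p under 0.05 and DESeq2 called 8 higher. Leaving out shock library 2 gave 17 members. Box over home cage gave 0 members by both tools, beside 0% of all genes by edgeR, with 10 members at an unadjusted p under 0.05.

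In the Camk2a 60 min set 1 member was higher after shock than in the home cage, beside 1.66% of all genes higher and 0.641% lower (2.30% in all), and 14 had an unadjusted p under 0.05. This was Uqcrb, at 391, 474, 503 and 504 CPM in the home cage and 517, 900, 912, 1132 and 1262 CPM after shock, with no overlap (1.07, SE 0.252, adjusted p = 0.0475). The call was lost with GC and length offsets, under the replicate block, with the marker score as covariate, with the sex read from Y-linked genes as covariate, and with plain library totals. The block here joins equal numbers of different conditions, which are different mice. Leaving out single libraries gave 0 members for 7 of the 9 libraries, and 6 and 7 members without shock library 2 and 3. DESeq2 called 5 higher and 4 lower. Camk2a libraries had GC slopes of 0.132 to 0.390 in the home cage and -0.647 to 0.0242 after shock, the opposite order to Pvalb mice, and r between log2 difference and GC was -0.589 over 46 members.

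In the Sst 60 min set members were lower after shock. Against the home cage 0 were higher and 7 lower, beside 2.34% and 2.15% of all genes (4.49%), and against box 0 were higher and 20 lower, beside 3.62% and 4.56% (8.18%). The 2 contrasts share the shock libraries. Cox5a was at 471, 513, 930, 964 and 1166 CPM in the home cage, 573, 600, 1074 and 1138 CPM in the box and 248, 299, 303 and 343 CPM after shock. All 4 shock libraries were below all others, with log2 differences of -1.54 (SE 0.335, adjusted p = 0.0247) and -1.65 (SE 0.348, adjusted p = 0.0179). Atp5g3 fell by 0.95 and 1.12, Cox7a2 by 0.91 and 1.09 and Atp5a1 by 0.65 and 0.72. Cox6a2 passed the test against box, where it fell by 2.24, from 46.3 ± 17.9 (SD, n = 4) to 10.9 ± 5.33 CPM (n = 4). Its difference from the home cage did not pass.

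In these 4 shock libraries, as in 1 home cage library of the set (-0.314), the marker score was below the mean lysate. The summed level of the 7 Sst markers was 225 to 497 CPM after shock, 508 to 7651 CPM in home cage and 2137 to 9734 CPM in box libraries, and the 8 astrocyte markers were at 5171 to 5471 CPM after shock and at 1644 to 3932 CPM in the home cage. With the marker score as covariate no member passed in either contrast. Under the replicate block, which here joins equal numbers of different conditions, none passed against the home cage. DESeq2 called 24 and 32 members lower and GC and length offsets 20 and 36, and leaving out single libraries gave 0 to 12 and 1 to 22. Shares over all genes under these settings are not given, so the counts do not set the members apart from other genes. The effect of shock and the poor enrichment cannot be told apart here, since every shock library of the set is affected. Depth differed as well. Purified home cage libraries 4 and 5 and box library 1 held 397228206, 290656072 and 355099628 counts, and the shock libraries 54537212 to 94397069. The part of this difference was not tested.

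No member passed in the other purified comparisons. Over all genes too, 0% were called in each of these except Sst 15 min shock over home cage. In the 3 comparisons of the Camk2a 15 min set, 0 to 9 members had an unadjusted p under 0.05, in those of the Pvalb 15 min set 0 to 5, and in those of the Sst 15 min set 11, 1 and 0, beside 1.21% (1.11% higher, 0.0997% lower), 0% and 0% of all genes called, and still no member passed without the low-score libraries, which leaves 1 shock library, assumed to vary like the others. This also held for box over home cage in the Sst 60 min set. DESeq2 also called 0 members there except for 3 lower in Sst 15 min shock over home cage and, at 60 min, 1 higher in Camk2a shock over box. In lysates, with the 3 lines fitted together, no member passed in any of the 6 comparisons by edgeR or DESeq2, beside 0% to 0.118% of all genes (0.0124% for box over home cage at 15 min), and 0 to 2 members had an unadjusted p under 0.05.

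Differences between responses were tested directly. The shock response of Pvalb mice exceeded that of Camk2a mice for 20 members and fell short for 8 at 60 min, beside 20.8% and 16.8% of all genes (37.6%). Atp5d (1.91, SE 0.318), Cox6a2 (1.83, SE 0.595), Uqcr11 (1.78, SE 0.345), Cyc1 (1.71, SE 0.274) and Atp5g2 (1.70, SE 0.272) were among the higher and Uqcrb (-1.83, SE 0.520) among the lower, and 6 members higher and 0 lower were left with GC and length offsets. The response in purified RNA exceeded that in lysate for 17 members and fell short for 0 in the Pvalb 60 min set, beside 13.0% and 7.44% of all genes (20.4%). Under the replicate block no member passed, with or without GC and length offsets. That block joins equal numbers of both fractions. In this set the sex read from Y-linked genes differed within home cage numbers 2 and 3 and shock numbers 2 and 3. Uqcr11 is an example: its lysate libraries lay at 458 to 820 CPM after shock and at 595 to 871 CPM in the home cage, which overlap. The interaction came to 1.34 (SE 0.263, adjusted p = 0.00236) for Uqcr11, 2 members were left with GC and length offsets, and Cox6a2 had 1.09 (SE 0.370). In the Camk2a 60 min set no member passed, beside 0% of all genes, and 8 had an unadjusted p under 0.05.

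The response at 60 min was lower than at 15 min for 6 members in Camk2a mice, beside 4.63% of all genes lower and 1.09% higher (5.71% in all): Uqcr11 (-1.62), Atp5d (-1.60), Uqcrc1 (-1.26), Atp5g2 (-1.24), Cyc1 (-1.14) and Atp5g1 (-1.09). None was left with GC and length offsets, and leaving out single libraries gave 0 to 12. The 15 and 60 min sets have separate home cage groups and were deposited in separate tables, so time and set cannot be told apart. In Pvalb and Sst mice no member passed this test, beside 0% of all genes, and 12 and 3 members had an unadjusted p under 0.05.

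Other genes of the pathway were read from lists chosen with earlier results of these data known. The 37 subunits of complex I, which feeds electrons from NADH into the chain, were counted in the same 6 comparisons, whose shares over all genes stand above: 34, 35, 35, 36, 36 and 25 were higher and 1, 1, 0, 0, 0 and 3 lower in purified RNA than in lysate, in the order Camk2a, Pvalb, Sst with 15 min before 60 min, and 18 were higher and 2 lower in Pvalb mice 60 min after shock. Of 40 assembly factors of complexes II to V, of which 32 were tested in Camk2a 15 min and 38 in the other sets, 24, 22, 24, 31, 27 and 18 were higher and 1, 3, 0, 0, 2 and 13 lower than in lysate. Of 17 citrate cycle genes, 8, 6, 12, 14, 7 and 8 were higher and 4, 5, 1, 1, 0 and 8 lower in the same order. Of 15 regulators of mitochondrial biogenesis 2 to 7 were higher and 4 to 7 lower in each set.

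Promoters were searched on both strands for the ETS core CCGGAAG, bound by GABPA among others, a factor known to act on respiratory genes, in RefSeq sequence of GRCm38.p6 from 250 bases before to 50 bases after the gene start. It was found in 12 of 35 members with a sequence (34.3%), among them Cox6a1, Cox8a, Sdhb and Uqcr11, and in 9.93% of 27025 symbols. A match is a description of the letters in this window. Cox6a2 has no entry among these sequences.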

How the data were processed

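PolyA RNA of purified fractions and lysates was sequenced from Nextera XT libraries, which do not keep strand. The submitters' processing notes list the tools STAR 2.7.7a, featureCounts and DESeq2 and the build GRCm38; the treatment of reads with several hits is not stated there. The values are raw counts per gene as deposited by the authors, in 6 tables of 1 line and time set each. Of 153 labelled samples, 151 had a column, 3 of them mapped to a group only. Counts were tested with edgeR 4.0.16 (filterByExpr, TMM, robust quasi-likelihood fits) in R 4.3.3, with Benjamini-Hochberg adjustment over all genes tested and a threshold of 0.05, and the tests were checked on simulated data. Standard errors are the log2 difference over the root of F. Alternatives were DESeq2 1.42.0, its size factors, no count filter, offsets for GC content and length from GENCODE M21, covariates, a replicate block and leaving out each library. Member counts under alternatives stand without the share over all genes, so they do not show whether the members differ from other genes. The block joined equal replicate numbers, across fractions within a condition where both fractions were fitted and across conditions otherwise. Leaving out libraries with a marker score under 1 and scaling by plain totals were added after seeing the data. Named genes are, per comparison and complex, up to 4 called members with the smallest p, or the single smallest, plus isoform families and the highest and lowest levels per kb. Members and lists were chosen with earlier results of these data known.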

Additional observations from a re-analysis of the deposited data

Results flagged for a closer look

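In groups of 4 to 10 libraries, a library was listed where its gap to the nearest other was large for the range of the group (Dixon's 95% value). This held in 11 of 162 tests, each of a summed complex, Cox6a1 or Cox6a2 within a group. Chance lists about 1 in 20, and the same libraries enter several of the tests. In lysates, complex II summed to 1289.2 CPM in Pvalb 60 min shock library 3 (others 1445.2 to 1523.2). Complex III summed to 4151.9 CPM in Pvalb 15 min box library 1 (others 3409 to 3507.1) and to 3321.5 CPM in Sst 15 min shock library 1 (others 2971.9 to 3043.9). Complex IV summed to 5283 CPM in that same Sst library (others 4244.8 to 4447.7) and to 6723.9 CPM in Camk2a 60 min shock library 1 (others 4722.3 to 5215.1). Sst 60 min home cage lysate 2 stood apart for complex IV at 6097.4 CPM (others 3248.4 to 3932.6) and for complex V at 9438.3 CPM (others 6822.2 to 7194.9). Cox6a2 was low in Pvalb 15 min home cage purified library 4 (110.53 CPM, others 187.23 to 197.15), in Pvalb 60 min box purified library 2 (124.89, others 186.47 to 197.3) and in Sst 15 min home cage lysate 4 (5.8718, others 8.5006 to 8.868). Cox6a1 was low in Sst 60 min box purified library 4 (945.78 CPM, others 1079.9 to 1097.9).

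Responses to shock differed between groups by a test of the difference for 6 members between 60 and 15 min in Camk2a mice (5.71% of all genes), for 28 members between Pvalb and Camk2a mice at 60 min (37.6% of all genes), and for 17 members between purified RNA and lysate in the Pvalb 60 min set (20.4% of all genes).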

How the results depend on the processing

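With GC and length offsets the members called numbered 20 for Sst 60 min purified over lysate (also 20 with the replicate block added), 3 for Pvalb and 3 for Sst over Camk2a at 15 min, 28 for Pvalb over Camk2a at 60 min with the majority turned to lower, 38 for Sst over Camk2a at 60 min, 0 for Camk2a 60 min shock over home cage, 11 for Pvalb 60 min, 20 for Sst 60 min shock over home cage and 36 over box, 0 for the Camk2a response at 60 against 15 min, 6 for Pvalb against Camk2a and 2 for purified against lysate in Pvalb 60 min. DESeq2 called 8 for Pvalb over Camk2a at 15 min, 9 for Camk2a 60 min shock over home cage and 1 over box, 8 for Pvalb 60 min shock over box, 3 for Sst 15 min shock over home cage, 24 for Sst 60 min shock over home cage and 32 over box, and 13 for the Camk2a response at 60 against 15 min. Under the replicate block 0 members were left for Camk2a 60 min and for Sst 60 min shock over home cage, and 0 for purified against lysate in Pvalb 60 min, with or without offsets. For shock over home cage the block joined equal numbers of different conditions, which are different mice, so it was no paired check there. Such pairs of purified libraries had a median correlation of 0.021 in Camk2a 60 min and 0.128 in Sst 60 min. The labels do not tie equal numbers to 1 animal, and in no set did every purified and lysate pair correlate above 0.1. Libraries correlated best with their own number in 10 of 10 pairs in Camk2a 15 min, 9 of 12 in Camk2a 60 min, 10 of 11 in Pvalb 15 min, 6 of 14 in Pvalb 60 min, 7 of 12 in Sst 15 min and 4 of 13 in Sst 60 min. This is a hint of pairing in some sets from the data and not from the design. The sex read from Y-linked genes differed between purified and lysate libraries of some equal numbers. These were Pvalb 60 min home cage 2 and 3 and shock 2 and 3, Camk2a 60 min shock 2 and Sst 15 min shock 4. By this reading equal numbers did not always mark 1 animal. The marker score as covariate left 0 in Camk2a 60 min shock over home cage and 0 in both Sst 60 min shock contrasts, and the sex covariate and plain totals each left 0 in the first.

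Leaving out single libraries gave 2 to 4 members for Pvalb and 3 to 5 for Sst over Camk2a at 15 min, 0 to 7 for Camk2a 60 min shock over home cage, 0 to 17 for Pvalb 60 min shock over box, 0 to 1 for Sst 15 min shock over home cage, 0 to 12 for Sst 60 min shock over home cage and 1 to 22 over box, and 0 to 12 for the Camk2a response at 60 against 15 min.

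Signs that changed with GC and length offsets were Sdha in Camk2a 60 min purified over lysate (0.41, and 0.40 with the replicate block), Sdhc in Sst 60 min (-0.017, and -0.0094 with the block), Sdhd (-0.40), Uqcrc2 (-0.31) and Uqcrfs1 (-0.19) in Pvalb over Camk2a at 60 min, Sdha (-0.36) in Sst over Camk2a at 60 min, Sdhb (-0.13) and Cox5b (-0.038) in Pvalb against Camk2a responses and Cox6a1 (-0.022) in purified against lysate responses. Sdha in Sst 15 min came to -0.098 with plain totals. The cause was not tested in any of these.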
